A study of Homo sapiens with 9 samples.

Results

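The ETS transcription factors studied here are 10 genes chosen by name, SPI1, ELF1, ERG, FLI1, ETV6, ETS1, ETS2, GABPA, ELF4 and ELK3, out of 60623 genes in the deposited expression values and out of 28 human genes that encode an ETS domain. Each name had 1 identifier, and all 10 genes were above 0 in all 9 libraries. RNA-seq was done on U937, a human monocytic cell line, in stable lines made with a retroviral Tet-inducible vector. Each fusion line was grown from a single clone, clone #4 carrying HA-tagged AML1-ETO and clone #14 carrying HA-tagged ETO2-GLIS2, while the control line carried the empty vector and is listed as WT. All lines were sampled at 0 h, before any induction, and after 12 and 48 h with doxycycline (5 μg/ml), which turns the construct on, so the empty vector line received the drug too. Each of the 9 conditions had 1 library, so in these libraries no difference between conditions has a replicate check and no p-value was computed. A difference between lines therefore cannot be told apart here from a difference between clones. The authors also measured SPI1 by RT-qPCR in another clone of each fusion, which is not part of these libraries. They reported SPI1 as repressed by AML1-ETO and not by ETO2-GLIS2 in that assay. Values are FPKM, reads per gene scaled to exon length and sequencing depth, which allows levels of different genes to be compared.

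ETS factors share a winged helix-turn-helix domain that binds DNA around a GGAA core, and most bind it together with a neighbouring factor. PU.1, encoded by SPI1, directs myeloid and B cell development and pairs with IRF4 or IRF8, GABPA binds DNA as a complex with a GABP beta subunit, ELK factors pair with SRF, and several ETS factors bind next to RUNX1 in blood cells. AML1-ETO joins the Runt domain of RUNX1 (AML1) to the corepressor ETO, and ETO2-GLIS2 joins the corepressor ETO2 to the zinc fingers of GLIS2. The question addressed was which ETS factors were expressed in each line to pair with each fusion protein, and how their levels stood after induction.

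Reads were recovered from the FPKM values, and the libraries held 15136404 to 18443647 reads on genes. Confidence intervals are 95% intervals from these reads. They cover counting error only, since the reads carry no molecular identifiers, so that they are not independent molecules, and cultures were not replicated. A gene was called higher or lower when it was past 2-fold and its mean over both libraries reached 1 FPKM, and in the fusion lines it was left out when the empty vector line was past 2-fold in the same direction. Fold changes are on the log2 scale of FPKM + 0.01, which understates those of very low genes. The myeloid identity of the lines was checked with 8 markers, of which 6 were at 1 FPKM or more in every library and MPO and CD68 were not. Of the CD68 exon bases, 81.6% are shared with another gene on the same strand, where reads may not have been counted, so its low value does not show that it was not expressed. Of 10 markers of other blood lineages and epithelium, 7 were at 0 in all 9 libraries, and the list summed to 4.09 to 5.22 FPKM in the empty vector line, 2.01 to 4.33 FPKM in the AML1-ETO line and 4.05 to 5.87 FPKM in the ETO2-GLIS2 line. The summed myeloid markers ranged from 634.8 to 1038 FPKM, from 279.6 to 1639 FPKM and from 621.1 to 1787 FPKM in the same order, and their part in the results below was not tested. In these bulk samples, fewer cells with a transcript and less transcript per cell cannot be told apart.

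Before induction, the 10 genes covered a wide range of levels. SPI1 was the highest in each line and ELF1 was the next. ETS2 and ELF4 followed with medians over the 3 uninduced libraries of 23.6 and 21.6 FPKM, and their ranges overlapped. FLI1 (median 17.8 FPKM), ELK3 (13.8 FPKM) and GABPA (12.1 FPKM) came next, each overlapping its neighbour in the order. ETV6 (11.2 FPKM) and ETS1 (9.86 FPKM) also overlapped. ERG was the lowest in all 9 libraries, and its range of 1.05 to 1.30 FPKM in the uninduced lines lay apart from that of ETS1. The uninduced fusion lines were compared with the uninduced empty vector line, which serves both comparisons. RUNX1T1, the gene of the ETO part of AML1-ETO, was at 0.512 FPKM in the AML1-ETO line at 0 h and at 22.2 and 28.7 FPKM at 12 and 48 h. It was at 0 in the other uninduced lines. The uninduced AML1-ETO line may thus not have been free of the fusion transcript, which was not tested. CBFA2T3 and GLIS2 are the genes of the parts of ETO2-GLIS2. In the ETO2-GLIS2 line CBFA2T3 was at 4.10, 11.35 and 12.63 FPKM at 0, 12 and 48 h, and GLIS2 at 2.39, 6.79 and 8.85 FPKM. The uninduced empty vector line had 4.75 and 4.76 FPKM, so reads of the genes themselves are included. Whether the fusions were induced to a like degree was not tested. None of the 10 genes was past 2-fold in the AML1-ETO line, where 4.9% of 11319 genes were past 2-fold, or in the ETO2-GLIS2 line, where 6.41% of 11176 genes were. Their log2 differences from the empty vector line ranged from -0.47 (ELK3) to 0.47 (SPI1) in the AML1-ETO line and from -0.34 (FLI1) to 0.42 (GABPA) in the ETO2-GLIS2 line.

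**Figure D1:**
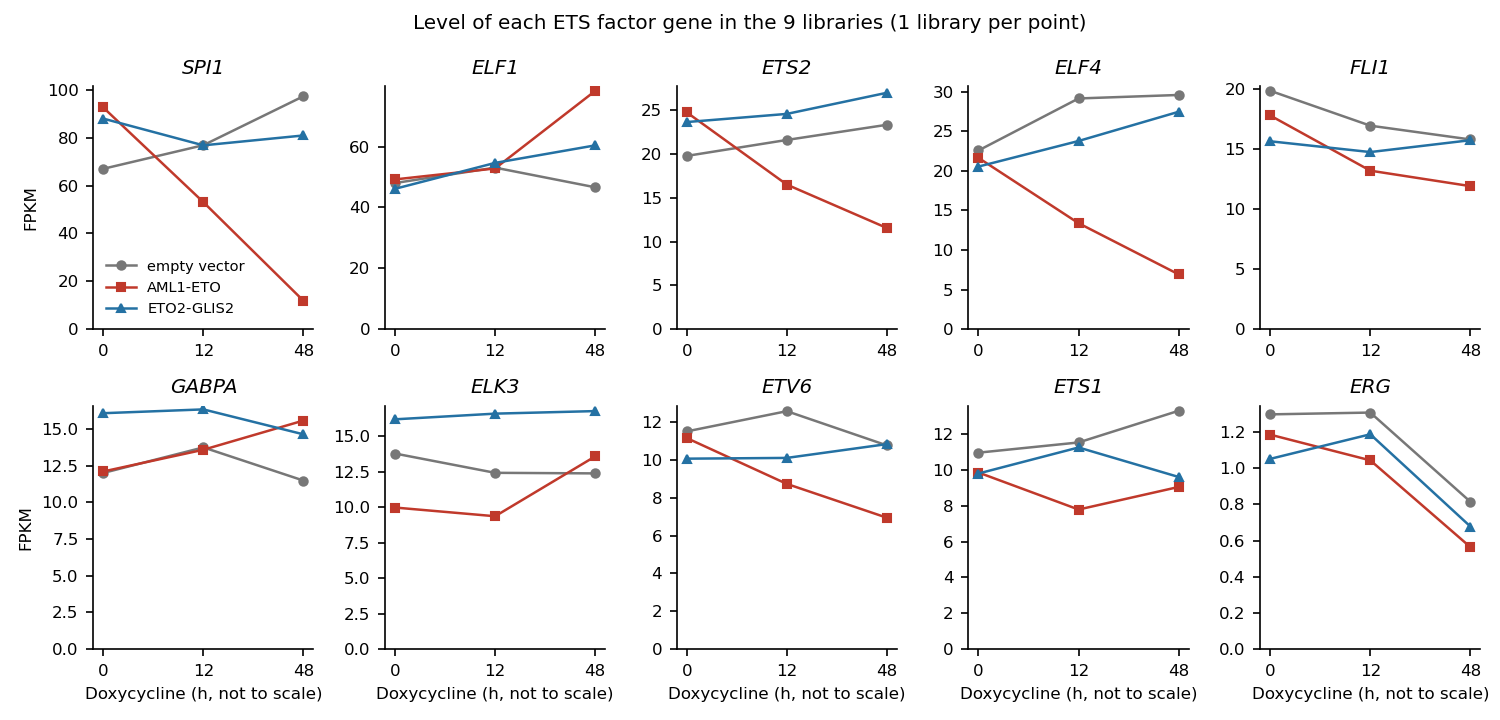
FPKM (vertical axes, starting at 0) of the 10 ETS factor genes at 0, 12 and 48 h of doxycycline (horizontal axes, not to scale), with 1 point per library and lines joining the libraries of the empty vector, AML1-ETO and ETO2-GLIS2 lines. In the AML1-ETO line SPI1 ends at 11.9, ELF4 at 6.93 and ETS2 at 11.5 FPKM, and ELF1 ends at 78.3 FPKM.

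After 48 h of AML1-ETO induction, 3 of the 10 genes were called lower, namely SPI1, ELF4 and ETS2, and none rose past 2-fold. ERG also fell past 2-fold (-1.06), but its mean level was under 1 FPKM, so it was not tested. The called genes were 3 of 9 tested. In that comparison 9.88% of all 12030 genes tested were called lower, and 22.5% were called in either direction. With ETO2-GLIS2, 0 of 9 tested genes were called at 48 h, beside 7.52% of all genes in either direction. The empty vector line had 0 of 10 called, beside 11.0% of all genes. The median log2 fold change over the tested ETS factor genes was -0.58 in the AML1-ETO line, 0.05 in the ETO2-GLIS2 line and -0.05 in the empty vector line, where the median of all genes tested was 0.22, 0.16 and 0.16. Rescaling by the median ratio brought these medians of all genes to 0.05, -0.01 and 0.01, and SPI1, ELF4 and ETS2 stood at -3.13, -1.81 and -1.27 in the AML1-ETO line after it. At 12 h no ETS factor gene was called in any line, where 6.27% of genes were called in the AML1-ETO line, 2.64% in the ETO2-GLIS2 line and 7.53% in the empty vector line.

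SPI1 (ENSG00000066336, chromosome 11 from 47354860 to 47378547 on GRCh38.p14) encodes PU.1. It had 67.0, 76.9 and 97.3 FPKM at 0, 12 and 48 h in the empty vector line, 92.6, 53.1 and 11.9 FPKM in the AML1-ETO line, and 88.0, 76.8 and 80.9 FPKM in the ETO2-GLIS2 line. Only the AML1-ETO library at 48 h lay far from the rest, with 374 reads where the other 8 libraries had 1695 to 3357. Most of the fall came between 12 and 48 h, where the log2 fold change was -2.16 (95% interval -2.32 to -2.00), against -0.80 (-0.89 to -0.72) in the first 12 h. When the libraries at 48 h were set side by side, SPI1 in the AML1-ETO line was lower by 8.19-fold than in the empty vector line and by 6.81-fold than in the ETO2-GLIS2 line. In the ETO2-GLIS2 line the log2 fold change was -0.20 at 12 h and -0.12 at 48 h, both short of 2-fold.

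ELF4 (ENSG00000102034, chromosome X from 130063955 to 130111858) encodes a factor known for restraining proliferation and for roles in innate immunity. Its levels were 22.6, 29.1 and 29.6 FPKM in the empty vector line, 21.6, 13.4 and 6.93 FPKM in the AML1-ETO line and 20.5, 23.8 and 27.5 FPKM in the ETO2-GLIS2 line. The 3 uninduced libraries were close to each other, and both induced AML1-ETO libraries lay below all the others. ELF4 fell in the AML1-ETO line by 1.64 on the log2 scale at 48 h (95% interval -1.80 to -1.49), after -0.69 (-0.81 to -0.57) at 12 h. In the other lines its values at 48 h were 0.39 with the empty vector and 0.42 with ETO2-GLIS2. At 48 h the AML1-ETO line stood at a log2 difference of -2.09 (-2.24 to -1.95) from the empty vector line and of -1.99 (-2.14 to -1.84) from the ETO2-GLIS2 line.

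ETS2 (ENSG00000157557, chromosome 21 from 38805183 to 38824955) encodes an activator that answers to Ras and MAP kinase signals and is known in macrophages. It had 19.8, 21.6 and 23.3 FPKM in the empty vector line, 24.7, 16.5 and 11.5 FPKM in the AML1-ETO line and 23.6, 24.5 and 27.0 FPKM in the ETO2-GLIS2 line. Here too the induced AML1-ETO libraries were the 2 lowest of the 9. It stood at a log2 fold change of -0.58 (95% interval -0.69 to -0.48) at 12 h, and ETS2 fell by 1.10 (-1.22 to -0.98) at 48 h, close enough to 2-fold that the interval of the latter reached values short of it. Of the ETS2 exon bases, 2.25% are also exonic in a gene of the other strand, whereas SPI1 and ELF4 share no exon bases on either strand.

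The promoters of ELF4 and ETS2 are shown because both genes were called lower in the same libraries. They are the 250 bases before the start of each gene from RefSeq on GRCh38.p14, written 5′ to 3′ on the strand of the gene, at chrX:130111859-130112108 (minus strand) and chr21:38804933-38805182 (plus strand). Capitals mark the ETS core GGAA or its complement TTCC, and the Runt motif TGTGGT or its complement ACCACA.
ELF4: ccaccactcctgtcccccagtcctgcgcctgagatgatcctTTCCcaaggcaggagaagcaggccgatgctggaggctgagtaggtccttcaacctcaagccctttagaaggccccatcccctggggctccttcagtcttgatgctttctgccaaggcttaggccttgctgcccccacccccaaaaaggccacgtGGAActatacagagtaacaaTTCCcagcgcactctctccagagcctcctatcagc
ETS2: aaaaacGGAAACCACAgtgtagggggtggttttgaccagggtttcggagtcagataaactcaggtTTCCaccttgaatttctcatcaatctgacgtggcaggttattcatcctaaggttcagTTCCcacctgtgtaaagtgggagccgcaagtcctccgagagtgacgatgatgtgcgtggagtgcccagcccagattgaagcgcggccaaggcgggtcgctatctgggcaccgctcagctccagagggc

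A promoter sequence was matched for 7 of the 10 genes, and SPI1, FLI1 and ETS1 were not matched. On both strands, the ELF4 promoter held 3 GGAA cores and the ETS2 promoter 3, and in ETS2 the first of these lay directly beside the Runt motif without sharing bases. A GGAA core was found in 6 of the 7 promoters, ELF1 being without it, beside 92.7% of 35116 promoters of the same length, so it does not set these genes apart. The windows of ELF1 (chr13:40982283-40982532) and ERG (chr21:38660668-38660917) lay inside the spans of these genes. They are therefore not the bases before the outermost start of either gene, which were not searched. The Runt motif TGTGGT was found in ETS2 only, beside 11.0% of all promoters. None of the 7 held the form TGCGGT (5.84% of all promoters), the longer PU.1 site GAGGAAGT (2.17%) or the G-rich GLIS site TGGGGGGT (1.33%). A match describes these letters in this window and does not show binding.

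ELF1 (ENSG00000120690, chromosome 13 from 40931919 to 41061386), a close relative of ELF4 that is known in T cell and blood gene expression, had the highest value of any of the 10 genes in the AML1-ETO library at 48 h. It had 48.0, 53.1 and 46.6 FPKM in the empty vector line, 49.2, 52.8 and 78.3 FPKM in the AML1-ETO line and 46.1, 54.6 and 60.4 FPKM in the ETO2-GLIS2 line. The 3 uninduced values lay close together, and the 48 h libraries of both fusion lines were the 2 highest. At 48 h the log2 fold change was 0.67 (95% interval 0.61 to 0.73) with AML1-ETO and 0.39 (0.33 to 0.45) with ETO2-GLIS2, neither past 2-fold, beside medians of all genes of 0.22 and 0.16. It was -0.04 (-0.11 to 0.03) with the empty vector.

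ELF1 and SPI1 were almost level in the AML1-ETO line at 12 h, and the ratio of SPI1 to ELF1 in FPKM was 0.152 at 48 h. In the other 7 libraries the ratio lay between 1.34 and 2.09. SPI1 was the first of the 28 ETS genes in 8 libraries. In the AML1-ETO library at 48 h it was the 8th, and ERF, a repressor of the family, came after ELF1 with 22.4 FPKM.

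Summed over the 28 ETS genes, the expression was 287.9, 313.2 and 331.3 FPKM in the empty vector line, 314.7, 252.9 and 238.8 FPKM in the AML1-ETO line and 297.3, 305.1 and 329.4 FPKM in the ETO2-GLIS2 line. The induced AML1-ETO libraries had the 2 lowest sums. SPI1 made up 23.3%, 24.5% and 29.4% of the sum in the empty vector line, 29.4%, 21.0% and 4.97% in the AML1-ETO line and 29.6%, 25.2% and 24.6% in the ETO2-GLIS2 line. Without SPI1, the sum in the AML1-ETO line was 222.1, 199.8 and 227.0 FPKM. The 12 h value was the lowest of the 9 libraries, and the other 8 lay between 209.3 and 248.5 FPKM. ELF1 alone made up 32.8% of the ETS sum in that line at 48 h, against 15.6% at 0 h.

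**Figure D2:**
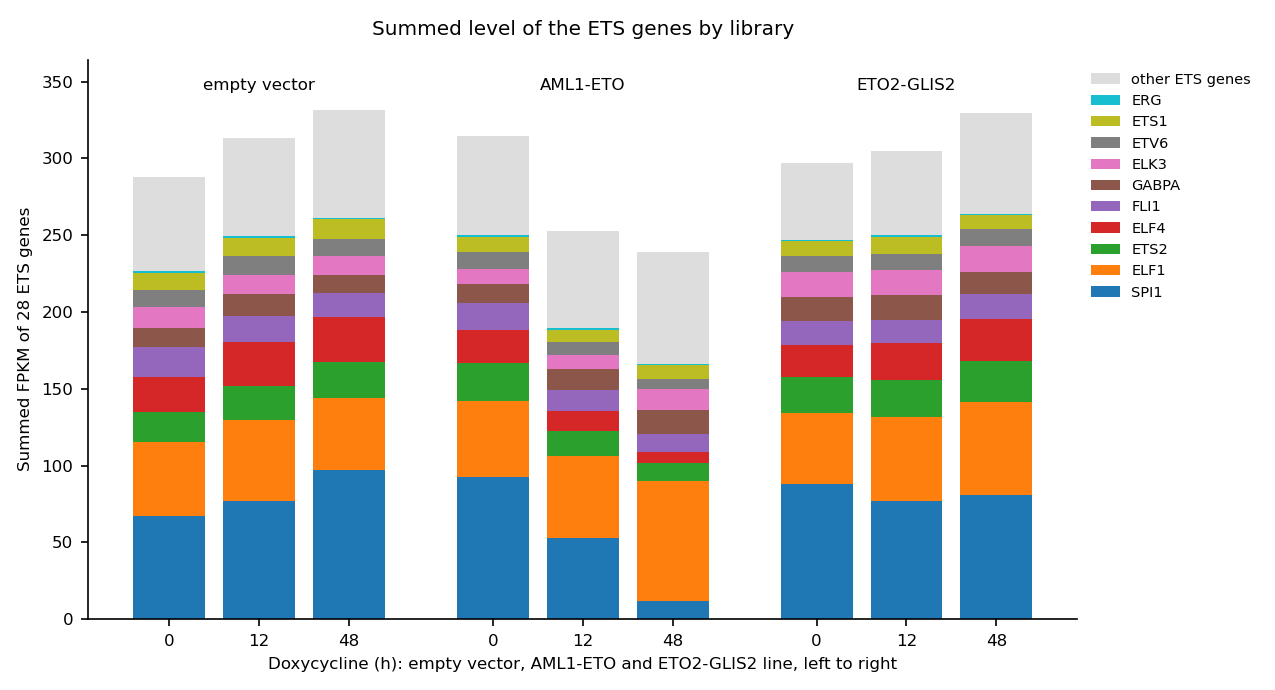
Summed FPKM of 28 ETS genes (vertical axis, starting at 0) in each of the 9 libraries (bars, by line and hours of doxycycline), with the share of each of the 10 ETS factor genes in colour and the other 18 in grey. In the AML1-ETO line the SPI1 segment shrinks from 92.6 to 11.9 FPKM, and the whole bar from 314.7 to 238.8 FPKM.

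ERG (ENSG00000157554, chromosome 21 from 38367261 to 38661783), a factor of haematopoietic stem cells and endothelium that is often active in leukaemia, was expressed far below the others. Its level was 1.30, 1.31 and 0.814 FPKM in the empty vector line, 1.19, 1.04 and 0.563 FPKM in the AML1-ETO line and 1.05, 1.19 and 0.677 FPKM in the ETO2-GLIS2 line, with 65 to 161 reads behind these values. The 48 h library was the lowest of each line, that of the empty vector included. Between 0 and 48 h its log2 values were -0.67 (95% interval -1.05 to -0.30) with the empty vector, -1.06 (-1.52 to -0.64) with AML1-ETO and -0.63 (-1.04 to -0.24) with ETO2-GLIS2, and the 3 intervals overlapped. The fall with AML1-ETO was past 2-fold, but ERG was not called because its mean level was under 1 FPKM. Over the 9 libraries, FLI1 was 12.4 to 23.3 times as high as ERG, and ELF1 was 37.0 to 138.9 times as high.

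FLI1 (ENSG00000151702, chromosome 11 from 128685132 to 128813267) is the closest relative of ERG and is known in megakaryocyte and endothelial development. It had 19.9, 17.0 and 15.8 FPKM in the empty vector line, 17.8, 13.2 and 11.9 FPKM in the AML1-ETO line and 15.7, 14.8 and 15.8 FPKM in the ETO2-GLIS2 line. It was lower at 48 h than at 0 h in the empty vector line as well, at a log2 fold change of -0.33 (95% interval -0.42 to -0.24), beside -0.58 (-0.67 to -0.48) in the AML1-ETO line and 0.01 (-0.08 to 0.09) in the ETO2-GLIS2 line, none past 2-fold. The induced AML1-ETO libraries were again the 2 lowest.

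ETV6 (ENSG00000139083, chromosome 12 from 11649674 to 11895377), a repressor needed for blood formation in the bone marrow and itself a partner in leukaemia fusions, had 11.5, 12.6 and 10.8 FPKM in the empty vector line, 11.2, 8.73 and 6.94 FPKM in the AML1-ETO line and 10.1, 10.1 and 10.8 FPKM in the ETO2-GLIS2 line. Its 2 lowest values were those of the induced AML1-ETO libraries, and the other 7 lay between 10.1 and 12.6 FPKM. At 48 h with AML1-ETO its log2 fold change was -0.68 (95% interval -0.82 to -0.55), short of 2-fold.

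ETS1 (ENSG00000134954, chromosome 11 from 128458765 to 128587558), known in lymphocytes and for binding DNA together with RUNX1, had 11.0, 11.5 and 13.3 FPKM in the empty vector line, 9.86, 7.79 and 9.05 FPKM in the AML1-ETO line and 9.81, 11.3 and 9.61 FPKM in the ETO2-GLIS2 line. Its lowest AML1-ETO value was at 12 h, and at 48 h the log2 fold change there was -0.12 (95% interval -0.25 to 0.00). At 48 h both fusion lines were below the empty vector line, by log2 differences of -0.56 with AML1-ETO and -0.47 with ETO2-GLIS2, in neither case past 2-fold.

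GABPA (ENSG00000154727, chromosome 21 from 25734972 to 25772460), a widely expressed activator of housekeeping and mitochondrial genes, had 12.0, 13.7 and 11.5 FPKM in the empty vector line, 12.1, 13.6 and 15.6 FPKM in the AML1-ETO line and 16.1, 16.3 and 14.6 FPKM in the ETO2-GLIS2 line. It spread the least of the 10 genes, with the highest of the 9 values 1.42 times the lowest. Of its exon bases, 12.1% are also exonic in a gene of the other strand. After 48 h of AML1-ETO its log2 fold change was 0.36 (95% interval 0.25 to 0.48), and GABPA was the second highest of the 10 genes in that library.

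ELK3 (ENSG00000111145, chromosome 12 from 96194375 to 96269824), which encodes a factor that binds DNA with SRF, differed most between the uninduced lines. It had 13.8, 12.4 and 12.4 FPKM in the empty vector line, 9.97, 9.36 and 13.6 FPKM in the AML1-ETO line and 16.2, 16.6 and 16.8 FPKM in the ETO2-GLIS2 line. All 3 ETO2-GLIS2 libraries were above the other 6. At 48 h with AML1-ETO ELK3 stood at a log2 fold change of 0.45 (95% interval 0.31 to 0.58), which brought ELK3 from the lowest uninduced value of the 3 lines to a level between those of the other lines.

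**Figure D3:**
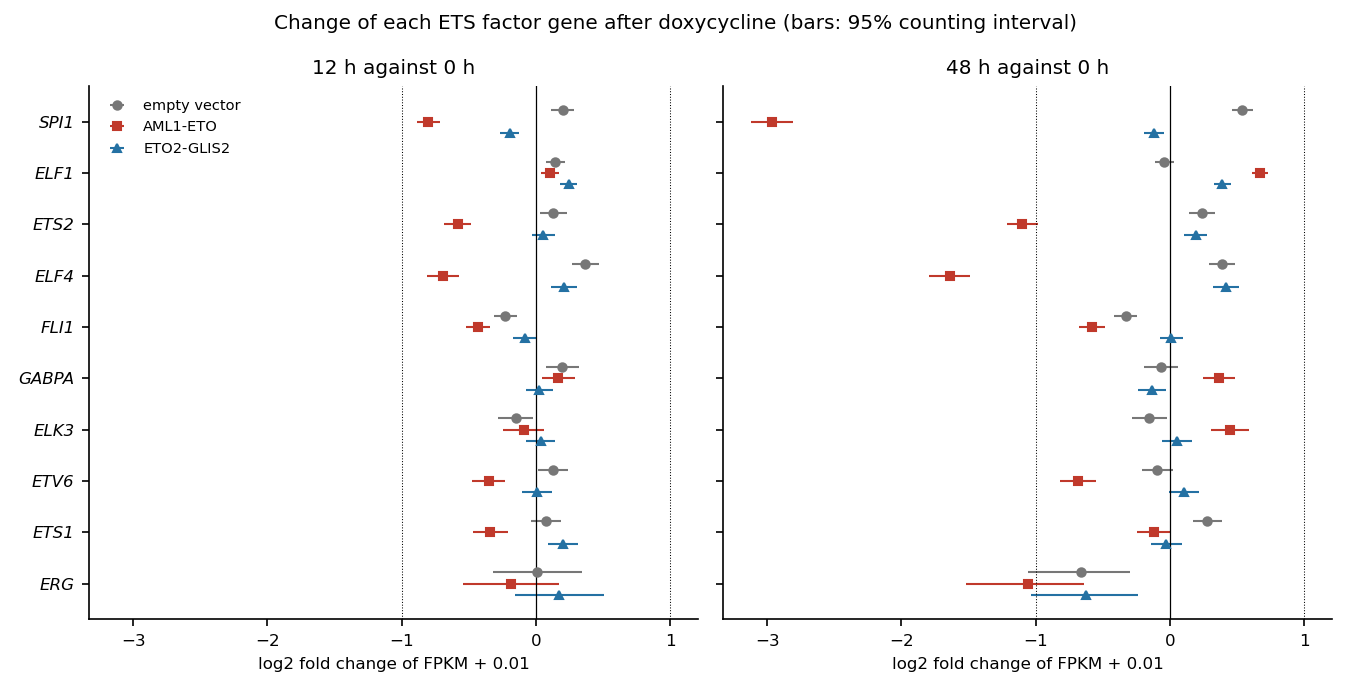
The log2 fold change of FPKM + 0.01 (horizontal axis) of the 10 ETS factor genes at 12 h (left) and 48 h (right) against 0 h in the empty vector, AML1-ETO and ETO2-GLIS2 lines; bars are 95% counting intervals and dotted lines mark 2-fold. At 48 h with AML1-ETO, SPI1 lies at -2.96, ELF4 at -1.64 and ETS2 at -1.10, and ELF1 lies at 0.67.

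Counting noise is small beside many of these differences, and the directions differed among the 10 genes. At 48 h with AML1-ETO the interval lay below 0 for 6 genes and above 0 for 3 (ELF1, GABPA and ELK3), and it held 0 for ETS1. With ETO2-GLIS2 it lay below 0 for 3 genes, above 0 for 3 and held 0 for 4. With the empty vector it lay below 0 for 3, above 0 for 4 and held 0 for 3. After median-ratio scaling all of these log2 fold changes were lower, and the values of FLI1, ETV6 and ELK3 in the ETO2-GLIS2 line turned from 0.01, 0.11 and 0.05 to -0.16, -0.06 and -0.12.

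Directly between the fusion lines, all 10 genes were lower in the AML1-ETO line than in the ETO2-GLIS2 line at 12 h, with log2 differences from -0.83 (ELF4) to -0.05 (ELF1). The interval lay below 0 for 8 of them, and 42.6% of all 11847 genes tested were below 0. None was past 2-fold, beside 8.0% of all genes. At 48 h, SPI1, ELF4 and ETS2 were called lower in the AML1-ETO line, at log2 differences of -2.77, -1.99 and -1.22, beside 11.6% of 12379 genes called lower and 21.2% called either way. ELF1 was higher in the AML1-ETO line by 0.37 on the log2 scale, short of 2-fold, and was the only one of the 10 genes with its interval above 0. Between the AML1-ETO and empty vector lines at 48 h the same 3 genes were called lower, beside 11.7% of 12261 genes called lower and 23.5% called either way. Between ETO2-GLIS2 and the empty vector at 48 h none was called, beside 6.67% of 12035 genes.

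Among the 18 other ETS genes, 14 were above 0 in at least 1 library and EHF, ETV1, ETV3L and SPIC were listed at 0 in all. The highest by mean level were ELK1 (17.4 FPKM), a partner of SRF, ERF (14.4 FPKM) and ELK4 (10.7 FPKM), also a partner of SRF. Counting all 28 genes, 16 to 18 were at 1 FPKM or more in each library, and 9 to 12 were at 10 FPKM or more. At 48 h, 0 of 8 tested genes were called with AML1-ETO and 0 of 7 with ETO2-GLIS2, beside 22.5% and 7.52% of all genes. ETV5 in both fusion lines, and ETV7 with AML1-ETO, were past 2-fold but left out because the empty vector line was too. The median log2 fold changes of the tested genes were 0.51 and 0.50, beside 0.48 in the empty vector line and 0.22, 0.16 and 0.16 for all genes in the same order. Against the empty vector line at 48 h, the medians were -0.04 with AML1-ETO and -0.10 with ETO2-GLIS2.

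ETV5, a factor of the PEA3 group that answers to growth factor signals, was the only other ETS gene called at 12 h. It had 2.38, 3.38 and 5.67 FPKM in the empty vector line, 1.11, 2.92 and 5.52 FPKM in the AML1-ETO line and 1.17, 3.15 and 7.52 FPKM in the ETO2-GLIS2 line. ETV5 rose at 12 h by 1.39 (95% interval 1.07 to 1.74) on the log2 scale with AML1-ETO and by 1.42 (1.12 to 1.73) with ETO2-GLIS2, against 0.51 with the empty vector. At 48 h the empty vector line was itself past 2-fold, at 1.25, so ETV5 was left out there at 2.31 and 2.67. Both uninduced fusion lines were called lower than the uninduced empty vector line for ETV5, at -1.09 and -1.01. ETV7, a repressor related to ETV6, was called higher in the AML1-ETO line than in the empty vector line before induction, with 2.39 against 0.259 FPKM, and it stood at 1.25 and 0.443 FPKM at 12 and 48 h of AML1-ETO. Its log2 fold change there at 48 h was -2.4, from 94 to 16 reads. ETV7 was left out because the empty vector line was at -1.55, from 10 to 3 reads and under 1 FPKM.

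Genes of proteins that pair with ETS factors were measured in the same libraries. IRF8, the partner of PU.1 in monocytic cells, had 88.7, 71.7 and 51.1 FPKM in the empty vector line, 91.9, 52.6 and 9.82 FPKM in the AML1-ETO line and 71.7, 43.7 and 18.9 FPKM in the ETO2-GLIS2 line. It was lower at each later time in every line, and lowest in the 48 h libraries of both fusion lines. IRF8 fell by 3.23 on the log2 scale (95% interval -3.34 to -3.12) with AML1-ETO and by 1.92 (-2.01 to -1.84) with ETO2-GLIS2 at 48 h, beside -0.80 with the empty vector. With ETO2-GLIS2, IRF8 was called lower while SPI1, at -0.12, was not. IRF4, the other IRF partner, was under 1 FPKM in all libraries.

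RUNX1 had 19.3, 21.9 and 26.2 FPKM in the empty vector line and 16.6, 19.1 and 25.3 FPKM in the ETO2-GLIS2 line. In the AML1-ETO line, where reads of the construct add to those of the gene itself, it lay between 16.8 and 17.8 FPKM. CBFB, which encodes the partner of RUNX1, had 29.1, 32.8 and 38.8 FPKM in the empty vector line, 29.1, 26.2 and 18.6 FPKM in the AML1-ETO line and 32.4, 33.1 and 39.8 FPKM in the ETO2-GLIS2 line. Over time in the AML1-ETO line CBFB was short of 2-fold (-0.65), and at 48 h it was called lower there than in the empty vector line (-1.06, 95% interval -1.16 to -0.97) and than in the ETO2-GLIS2 line (-1.10). The GABP beta genes GABPB1 and GABPB2 and SRF were not called in any fusion line at 48 h. GABPB1 ranged from 2.86 to 5.05 FPKM, GABPB2 from 3.77 to 8.39 FPKM and SRF from 24.1 to 41.2 FPKM.

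Of 20 genes known as PU.1 targets in myeloid cells, 18 were above 0, and MSR1 and MRC1 were listed at 0. At 48 h with AML1-ETO, 3 of 13 tested targets were called lower (LYZ, ITGB2 and FES) and 1 higher (ITGAX), with a median log2 fold change of 0.19 beside 0.22 for all genes, of which 22.5% were called. With ETO2-GLIS2, 1 of 14 was called lower (LYZ) and 1 higher (ITGAX), with a median of 0.35 beside 0.16 and 7.52% of all genes called. Targets past 2-fold in the same direction in the empty vector line were left out of these calls. With AML1-ETO these were PRTN3 (-5.45), ELANE (-2.96), EGR2 (1.67) and CSF2RA (1.2). With ETO2-GLIS2 they were PRTN3 (-2.55), ELANE (-2.01), ITGAM, NCF4 (1.54) and CSF2RA (1.2). For EGR2, the empty vector line went from 6 to 14 reads and was under 1 FPKM, and the AML1-ETO line went from 37 to 109 reads. With the empty vector, where no fusion protein is made, 3 of 13 were called higher (CSF2RA, ITGAM and NCF4) and 2 lower (ELANE and PRTN3), with a median of 0.55 beside 0.16 and 11.0% of all genes called, and these 5 were named after their values were seen. The lines set side by side at 48 h gave other counts. Against the empty vector line, 6 of 14 tested targets were called lower with AML1-ETO (ITGAM, ITGB2, FES, ELANE, PRTN3 and LYZ) and 1 higher (EGR2), with a median log2 difference of -0.72 beside 0.07 for all genes. Of all genes tested there, 11.7% were called lower and 23.5% either way. Against the ETO2-GLIS2 line, 6 of 15 were called lower with AML1-ETO and 1 higher, with a median of -0.87 beside 0.05. Of all genes, 11.6% were called lower in that comparison and 21.2% either way. With ETO2-GLIS2 against the empty vector, 2 of 15 were called higher (ITGAM and ITGAX) and 0 lower, with a median of 0.18 beside 0.03. Of all genes, 6.67% were called either way in this last comparison. ITGAM, the gene of the integrin alpha chain CD11b and also chosen after its values were seen, had 1.17, 1.96 and 2.78 FPKM in the empty vector line, 1.01, 1.24 and 0.832 FPKM in the AML1-ETO line and 2.23, 4.56 and 11.5 FPKM in the ETO2-GLIS2 line. At 48 h its log2 fold change was 2.36 with ETO2-GLIS2, where it was left out because the empty vector line was past 2-fold too, at 1.24.

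ITGB2, which encodes the shared beta chain of the leukocyte integrins, had 242.4, 332.3 and 408.1 FPKM in the empty vector line, 310.9, 308.2 and 20.1 FPKM in the AML1-ETO line and 258.0, 339.4 and 447.8 FPKM in the ETO2-GLIS2 line. Its level at 12 h of AML1-ETO was close to that at 0 h, at a log2 fold change of -0.01, although SPI1 was then at -0.80, and it fell by 3.95 (95% interval -4.02 to -3.89) at 48 h. FES, a myeloid tyrosine kinase gene, was 41.8, 33.9 and 10.7 FPKM in the AML1-ETO line and between 36.4 and 45.3 FPKM in the other 6 libraries. LYZ, the lysozyme gene, was 969.7, 1346 and 45.1 FPKM in the AML1-ETO line, 518.9, 774.6 and 380.2 FPKM in the empty vector line, and it was 1283, 1517 and 331.8 FPKM with ETO2-GLIS2. LYZ was thus above its 0 h level at 12 h in every line and below it at 48 h. Of its exon bases, 34.7% are also exonic in a gene of the other strand. ITGAX, which encodes the integrin alpha chain CD11c, had 2.17, 2.67 and 3.50 FPKM in the empty vector line, 1.95, 2.35 and 6.86 FPKM in the AML1-ETO line and 2.82, 3.57 and 10.7 FPKM in the ETO2-GLIS2 line. It rose at 48 h in both fusion lines, by 1.81 and 1.92 on the log2 scale.

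**Figure D4:**
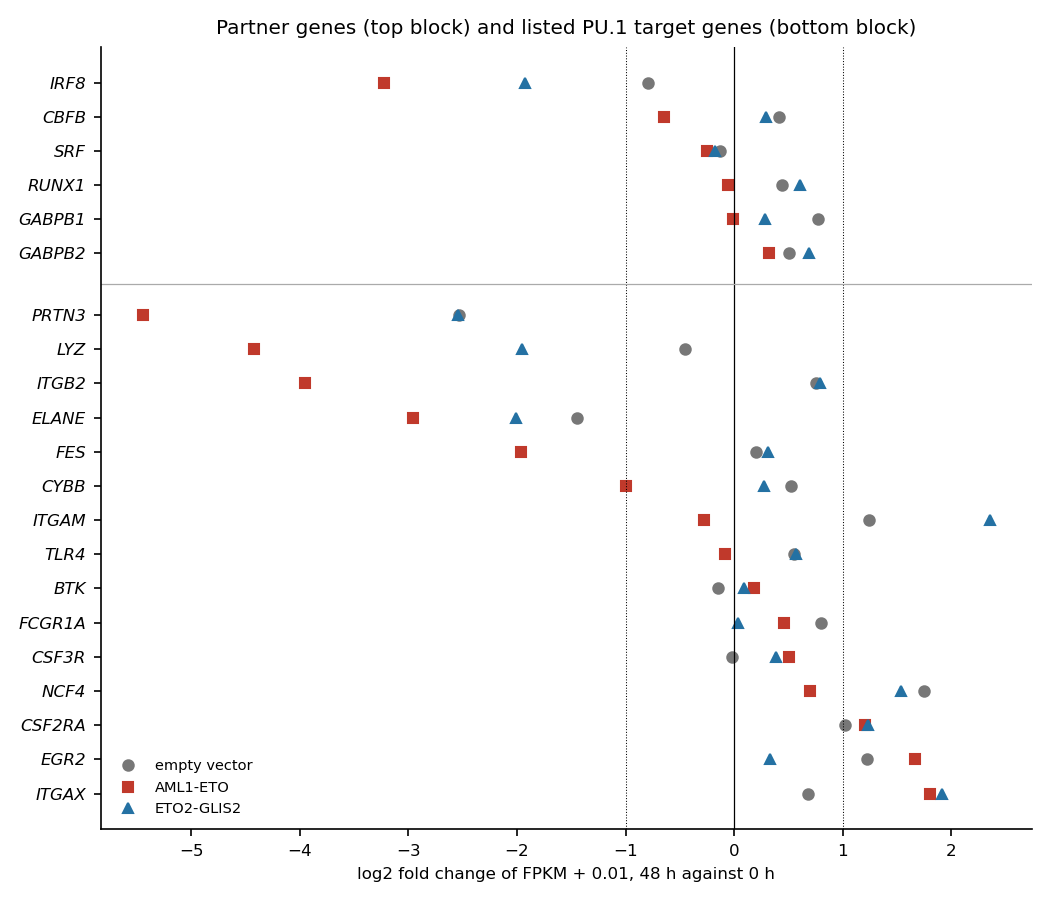
The log2 fold change of FPKM + 0.01 at 48 h against 0 h (horizontal axis) of the partner genes (upper block) and the listed PU.1 target genes (lower block), with 1 point for each of the empty vector, AML1-ETO and ETO2-GLIS2 lines and dotted lines at 2-fold. With AML1-ETO, IRF8 lies at -3.23, LYZ at -4.43, ITGB2 at -3.95 and FES at -1.96, and ITGAX lies at 1.81.

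The genes whose profile was most like that of SPI1 were PTPN12, a tyrosine phosphatase gene, NKG7, a granule membrane gene of cytotoxic cells, and RXRA, a nuclear receptor gene. Likeness was the root mean square difference between log2 profiles over the 9 libraries, each centred on its own mean, among 4705 genes with a mean of at least 10 FPKM. It was 0.14 for PTPN12, 0.20 for NKG7 and 0.20 for RXRA. PTPN12 had 15.3, 14.2 and 17.2 FPKM in the empty vector line, 17.0, 8.61 and 1.93 FPKM in the AML1-ETO line and 16.5, 13.4 and 14.1 FPKM in the ETO2-GLIS2 line.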

How the data were processed

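RNA-seq of 9 libraries from 3 U937 lines at 0, 12 and 48 h of doxycycline was used. The authors extracted RNA with TRIzol, prepared libraries with the TruSeq kit, aligned reads to hg38 with HISAT2 (2.0.5), handled them with samtools (1.7), counted them with HTSeq (0.9.1) under default settings and deposited FPKM for every gene. The HTSeq default counts by strand, but the kit keeps no strand, so reads of a gene and of one on the opposite strand cannot be told apart. Which annotation was used, and how exon length was defined, is not given in the sources used here. Where a gene name repeats, the identifier with the highest mean FPKM was taken.

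From the deposited FPKM, reads were recovered in Python (3.11.15) with scipy (1.17.1), numpy (2.4.6) and pandas (2.3.3), because the values of a gene step by a fixed amount per read. Reads came out whole for 23887 of 23889 genes above 0 in at least 3 libraries (99.99%). The allowance was 0.01 of a read plus 8e-06 of the number of reads. On simulated data the reads of 99.7% of 23354 genes were returned exactly. They served only for exact Clopper-Pearson intervals of ratios. Figures were drawn with matplotlib (3.10.9).

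Log2 fold changes used FPKM plus a pseudocount of 0.01. The call needed more than 2-fold and a mean of at least 1 FPKM. Alternatives changed the pseudocount, filter, fold threshold, scaling, reference library and treatment of the empty vector line. Named were all 10 ETS factor genes, the 3 highest other ETS genes and those past 2-fold over time, partners with a mean of at least 1 FPKM, the 4 called PU.1 targets with the largest change per fusion line, and the 3 genes most like SPI1. The genes and lists were chosen with earlier results of these data known. Gene positions and promoters come from RefSeq tables on GRCh38.p14. Exon overlap comes from an annotation on GRCh37, from which no coordinates were taken. A PU.1 target of the list as first written is not reported here and enters no count.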

Additional observations from a re-analysis of the deposited data

Results flagged for a closer look

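ELF4 moved in opposite directions in the fusion lines. With AML1-ETO its level was lower after 12 and 48 h than before induction, and with ETO2-GLIS2 it was higher after either time. The log2 fold changes at 48 h, -1.64 and 0.42, differed by -2.06. The difference was not tested, as each condition had 1 library. The empty vector line was also higher at both times, at 0.37 and 0.39.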

How the results depend on the processing

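No paired analysis was possible because each condition had 1 library. With 3 ETS factor genes called lower at 48 h of AML1-ETO, SPI1, ELF4 and ETS2, the count stayed at 3 with a pseudocount of 1 FPKM, median-ratio scaling or the empty vector line subtracted, and it was 4 with no filter, which adds ERG. At a 1.5-fold threshold 5 were called in either direction, as ETV6 (-0.68) was also lower and ELF1 (0.67) was higher. At that threshold 2 were called at 12 h with AML1-ETO and 1 in the empty vector line at 48 h. Subtracting the empty vector line gave 2 at 12 h. For the other ETS genes the 48 h counts, 0 and 0, became 4 with AML1-ETO at 1.5-fold, 2 with a pseudocount of 1 FPKM, 2 with no filter and 1 with the empty vector line subtracted; with ETO2-GLIS2 the last 3 gave 1 each. PU.1 targets, 4 and 2, became 7 with AML1-ETO when the empty vector line was subtracted, and with ETO2-GLIS2 1 at 1.5-fold and 4 at a pseudocount of 1 FPKM. The counts for the other ETS genes and the PU.1 targets join both directions. Shares of all genes called under these settings are not given here, so the moved counts cannot be read against them. The median log2 fold change over the 10 genes, -0.05 (empty vector), -0.63 (AML1-ETO) and 0.03 (ETO2-GLIS2), became -0.20, -0.80 and -0.14 with scaling. With AML1-ETO it was -0.51 at a pseudocount of 1 FPKM, -0.73 against the empty vector library at 0 h and -0.40 with the empty vector line subtracted, and with ETO2-GLIS2 0.28 against that library. Over the 10 genes alone, SPI1 made up 29.5%, 30.8% and 37.2% of the summed FPKM in the empty vector line, 37.0%, 28.01% and 7.15% with AML1-ETO and 35.6%, 30.7% and 30.7% with ETO2-GLIS2. The cause of these shifts was not tested. The lack of replicates limits every value, and ERG, with 65 to 161 reads, has the widest intervals.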
